A study of Arabidopsis thaliana with 30 samples.

Results

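The RiD-RGI1/BAK1 line of Arabidopsis thaliana (called the RGI1 line here) carries engineered forms of the receptor kinase RGI1 and of its co-receptor BAK1, and its roots were compared after rapamycin and after mock treatment. The libraries were chosen by their labels: 3 from the line with 1 µM rapamycin (replicates 1, 2 and 3) and 3 from the line with mock treatment (replicates 1, 3 and 4), which is 6 of the 30 libraries of the series. They were set beside 2 further groups of 3 from the same set, Col-0 wild type with 1 µM rapamycin and Col-0 wild type with mock treatment, and beside the RiD-RGI5/BAK1 line (the RGI5 line) with 100 nM rapamycin or mock treatment. The value columns of these 2 wild-type groups do not carry the full sample titles. They were matched to the samples by elimination, since the other wild-type samples have columns of their own. For levels alone, Col-0 wild type of the RGI5 set, with 100 nM rapamycin or mock treatment, and mock-treated Col-0 from the set in which RGF1 peptide was given (the RGF1 set) were also read. The ecotype of both lines is Col-0. All seedlings were 7 days old and were treated for 4 h, and RNA was taken from roots. The labels name the solvent DMSO in the titles of the mock samples, and they do not name the promoters of the transgenes, the dimerizing domains or the number of plant lines behind a genotype. Nothing in them tells if replicates were grown apart. The p-values therefore describe the spread among these libraries, part or all of which may be technical.

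RGI proteins are receptor kinases with leucine-rich repeats that perceive root meristem growth factor (RGF) peptides. Binding of the peptide brings the receptor together with a SERK co-receptor such as BAK1, and a MAP kinase cascade then leads to changes in transcription in the root tip. In dimerizer systems rapamycin, a macrolide known as an inhibitor of the TOR kinase, bridges 2 engineered proteins, so that receptor and co-receptor can be brought together without the peptide.

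Values were TPM (transcript abundance scaled to the same total in every library), summed over the transcript models of a gene. Read depth cannot be recovered from TPM and is unknown here. In the 30 libraries between 18999 and 19331 genes reached 1 TPM. Fold changes are differences of the mean log2(TPM + 1), which understate the change of weakly expressed genes. A gene was called at a limma adjusted p (Benjamini-Hochberg, over all genes tested) under 0.05. RGI1 (AT3G24240) stood at 221, 227 and 237 TPM in line roots with rapamycin and at 209, 204 and 199.5 TPM in line roots with mock, against 28.97 ± 1.91 TPM in wild type with rapamycin and 31.7 ± 1.54 TPM in wild type with mock (mean ± SD, n = 3 each). BAK1 (AT4G33430) stood at 189.7, 205 and 207 TPM with rapamycin and at 186, 183 and 180.2 TPM with mock in the line, and at 52.6 ± 1.31 TPM and 53.4 ± 0.926 TPM in wild type with and without rapamycin. All 6 line libraries thus lay above all 6 wild-type libraries of the set for both genes, and the values add up the engineered and the native copies of a gene.

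Rapamycin was followed by many small changes in the line. Limma called 796 of 19634 genes (4.05%), of which 503 were higher (2.56%) and 293 lower (1.49%) with rapamycin, and 3063 genes (15.6%) had an unadjusted p under 0.05. The median log2 fold change was 0.41 among the genes called higher and -0.45 among those called lower, and an absolute value of 1 was reached by 21 genes called higher and by 14 called lower. The split moved with the scaling. With median-ratio scaling the counts were 391 higher and 360 lower, and with quantile normalization 393 higher and 363 lower. Of the 796 genes, 677 and 674 were called in these fits too. The median over all genes tested was 0.03 as deposited, with 61.1% of genes above 0. Leaving out single libraries gave 530.0 calls without mock replicate 1, 422 without mock replicate 3 and 402 without mock replicate 4, and the fit of all 30 libraries gave 362. Counted by direction, the genes called higher were 302 without rapamycin replicate 2, 330.0 without rapamycin replicate 3, 280.0 without mock replicate 3 and 250.0 without mock replicate 4. The genes called lower were 195 without rapamycin replicate 1, and 174, 142 and 152 without mock replicates 1, 3 and 4. The fit of all 30 libraries called 7 glutathione transferases, 4 indole and camalexin genes, 3 berberine bridge enzyme-like oxidases, 4 WRKY factors, 1 immunity gene, 3 ABCG transporters and 1 suberin gene higher, and 12 root hair and 1 hypoxia gene lower, out of the lists described below.

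The same treatment of wild type called 0 of 19634 genes (0.0%) in limma, where 1290 genes (6.57%) had an unadjusted p under 0.05 and the smallest adjusted p was 0.113. The genes called in the line had no common direction in wild type. Of the 503 called higher, 225 stood above 0 and 278 below 0 in wild type (median -0.01), and of the 293 called lower, 141 stood above and 152 below (median -0.01).

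**Figure D1:**
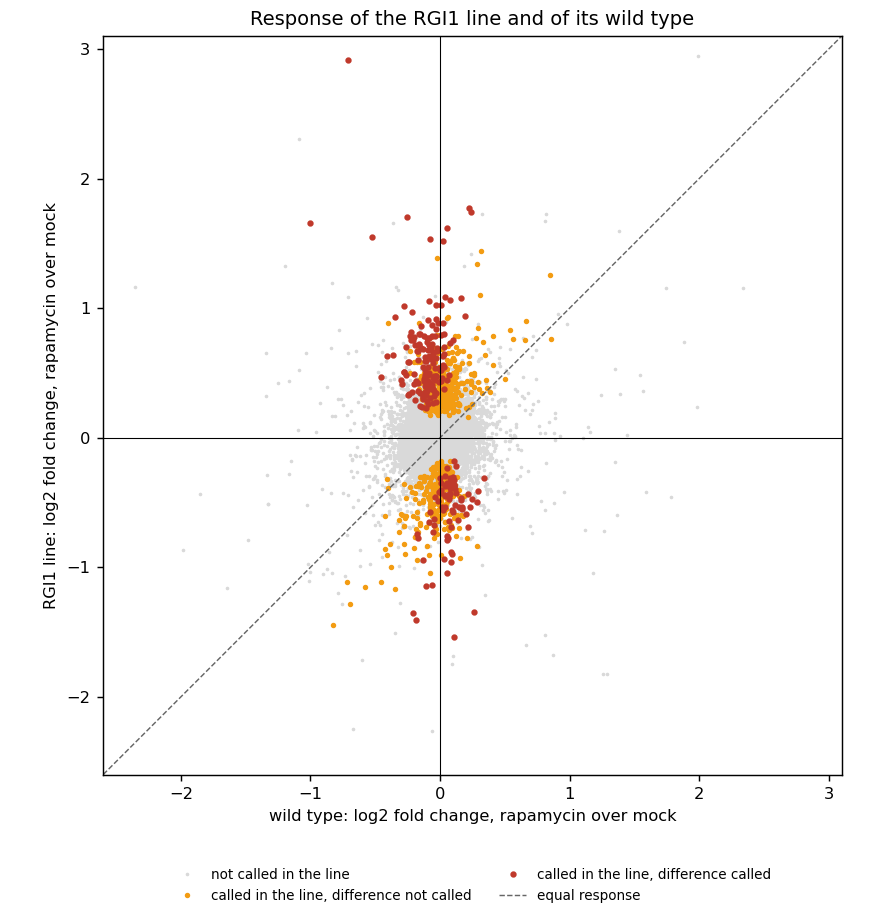
Log2 fold change with rapamycin over mock in the RGI1 line (vertical axis) against that in wild type (horizontal axis), on the log2(TPM + 1) scale, 1 point per gene tested. The 796 genes called in the line spread mainly along the vertical axis, with wild-type values on both sides of 0, and the 227 for which the difference from wild type was also called are drawn in red.

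The level in wild type was then set beside both groups of the line. For this description, made after the values were seen, the mean of the 6 wild-type libraries of the set was placed on the log2(TPM + 1) scale against both group means of the line. Among the 503 genes called higher, the wild-type level was nearer to the line with rapamycin for 303 genes and nearer to the line with mock for 200. The line stood above wild type by a median of 0.14 with rapamycin, and its mock roots differed from wild type by a median of -0.25. Among the 293 genes called lower, the wild-type level was nearer to the line with rapamycin for 40 genes and nearer to the line with mock for 253. Here the line differed from wild type by a median of -0.44 with rapamycin and of 0.04 with mock. Set against the wild type of the RGI5 set, the level was nearer to the line with rapamycin for 300 of the 503 and for 130 of the 293 genes, and against the mock wild type of the RGF1 set for 296 and 102. These counts use the same line libraries as the calls and were not tested.

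Of the 40 gene lists described here 29 held at least 1 called gene and 11 held none, and in 28 of the 29 the share called was above the 4.05% of all genes. Many lists are short, so that 1 or 2 calls exceed that share. The lists were also chosen with earlier results of these data known, so these shares are a description and no test. The counts of each list below stand against 2.56% of all genes called higher and 1.49% called lower. Lists of enzymes that modify or transport small molecules and of immune regulators held genes called higher. Lists of root hair growth, of extensins, of protein folding in the endoplasmic reticulum (ER) and of the response to low oxygen held genes called lower. Class III peroxidases and xyloglucan endotransglucosylases held both.

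**Figure D2:**
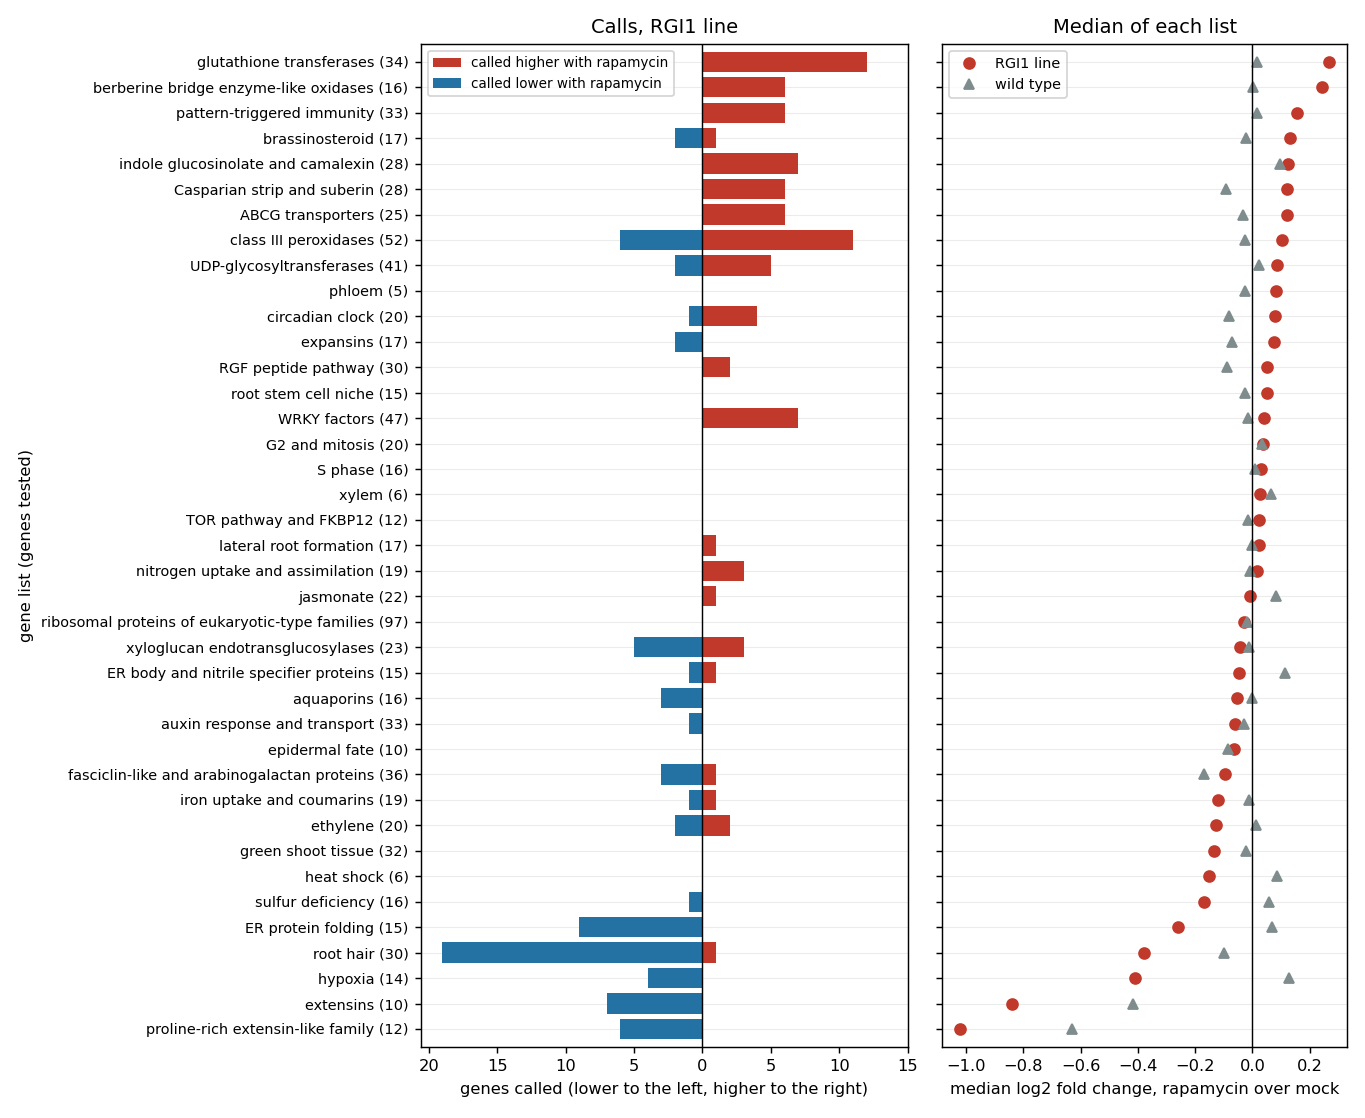
Left, genes called in each list with at least 5 genes tested in the RGI1 line, higher to the right and lower to the left, with the number tested in brackets; right, the median log2 fold change of each list in the line (circles) and in wild type (triangles). Glutathione transferases (12 higher) and root hair genes (19 lower, 1 higher) had the most calls in 1 direction, and cell cycle, ribosomal and stem cell lists had none.

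Glutathione transferases, which join glutathione to reactive or foreign compounds, formed the list with most genes called higher: 12 of 34 tested were higher, none was lower and 22 did not pass. Median-ratio scaling gave 10 higher and 1 lower, and quantile normalization 11 and 1. The list median was 0.27, against 0.03 over all genes tested and 0.02 for the list in wild type. The phi-class gene GSTF7 (AT1G02920) reached 452, 409 and 427 TPM in line roots with rapamycin and 161, 159.6 and 125 TPM with mock, a log2 fold change of 1.54 (SE 0.11, limma adjusted p = 4.08e-05). Its neighbour in sequence GSTF6 (AT1G02930) reached 368, 331 and 354 TPM with rapamycin and 121, 109.6 and 91.5 TPM with mock (1.71, SE 0.13, limma adjusted p = 4.08e-05). Wild type lay between these groups for both genes, at 313 ± 45.03 TPM with rapamycin and 329.9 ± 33.4 TPM with mock for GSTF7, and at 217 ± 27.5 and 260.5 ± 42.1 TPM for GSTF6 (mean ± SD, n = 3 each). The 2 genes are close copies, so how reads were divided between them is uncertain.

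Genes of the tau class were also called. GSTU10 (AT1G74590) stood at 21.8, 18.98 and 18.2 TPM with rapamycin and at 9.52, 8.31 and 8.35 TPM with mock in the line (1.08, SE 0.08, limma adjusted p = 4.7e-05), and at 14.2 ± 1.38 and 13.8 ± 0.667 TPM in wild type with rapamycin and with mock. GSTU1 (AT2G29490) stood at 103, 101 and 105 TPM with rapamycin and at 80.2, 75.9 and 67.4 TPM with mock (0.46, SE 0.06, limma adjusted p = 0.000847). No value of the mock group reached the lowest value of the rapamycin group in any of these 4 genes. Such separation goes with their choice as called genes of small p, and 19.9% of all genes tested had no overlap between these groups. The difference between the response of the line and that of wild type was itself called higher for 9 of the 34 genes, where 0.82% of all genes were. That count was 5 without line mock replicate 3 and between 6 and 12 without each other library of the set.

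UDP-glycosyltransferases, which attach sugars to hormones and defence compounds, had 5 of 41 genes called higher and 2 lower. Of all genes, 2.56% were called higher and 1.49% lower. UGT73B4 (AT2G15490) stood at 10.2, 10.3 and 12.2 TPM with rapamycin and at 6.55, 6.603 and 6.36 TPM with mock (0.66, limma adjusted p = 0.000732). UGT76C2 (AT5G05860), which glucosylates cytokinins, stood at 23.8, 26.2 and 26.97 TPM with rapamycin and at 18.3, 15.98 and 16.9 TPM with mock (0.56, limma adjusted p = 0.000613). UGT87A2 (AT2G30140) (0.71, limma adjusted p = 0.00367) and UGT72E2 (AT5G66690), an enzyme of monolignol glucosides (0.41, limma adjusted p = 0.0118), were also higher. These 4 kept their calls without each library in turn, and UGT72E2 lost its call when the 6 line libraries were fitted alone (limma adjusted p = 0.0554). Of the 2 calls lower, 0 were made without mock replicate 1 and 0 without rapamycin replicate 1, and 1 without mock replicate 3, mock replicate 4 or rapamycin replicate 3.

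Enzymes of indole glucosinolates and camalexin, sulfur- and nitrogen-containing defence compounds of the cabbage family, had 7 of 28 genes called higher and none lower (6 higher and 1 lower after median-ratio scaling, 7 and 1 after quantile normalization). The list median was 0.13 in the line and 0.10 in wild type. The methyltransferase gene IGMT2 (AT1G21120) stood at 11.1, 9.63 and 13.3 TPM with rapamycin and at 3.71, 2.997 and 2.93 TPM with mock (1.55, SE 0.13, limma adjusted p = 4.7e-05), and IGMT4 (AT1G21130) at 20.7, 21.8 and 15.5 TPM and 5.63, 6.94 and 5.58 TPM with and without rapamycin (1.52, SE 0.14, limma adjusted p = 8.01e-05). IGMT3 (AT1G21110) was the most abundant of the 3, with 78.9, 84.4 and 92.3 TPM with rapamycin and 51.8, 49.9 and 44.1 TPM with mock (0.80, SE 0.08, limma adjusted p = 0.000139). Wild type differed from gene to gene. For IGMT3 its means lay within the range of the mock line (47.3 ± 1.54 TPM with rapamycin, 46.4 ± 4.22 TPM with mock), while for IGMT2 they lay between the line groups (5.91 ± 0.429 and 9.02 ± 1.53 TPM). The IGMT genes are close copies, and the division of reads among them is uncertain.

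CYP71B6 (AT2G24180), a cytochrome P450 that converts indole-3-acetonitrile, had 50.8, 53.8 and 52.9 TPM with rapamycin and 34.6, 33.96 and 31.9 TPM with mock (0.63, SE 0.05, limma adjusted p = 4.7e-05). CYP71A12 (AT2G30750) had 9.17, 7.86 and 7.05 TPM with rapamycin and 1.92, 2.02 and 1.05 TPM with mock (1.78, limma adjusted p = 0.000261), and it was not called in the fit of all 30 libraries (limma adjusted p = 0.139). The difference from the wild-type response was called higher for 6 of the 28 genes, and for 6 without each of the 12 libraries of the set in turn.

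Berberine bridge enzyme-like oxidases, flavoproteins that oxidize indolic compounds, cell wall fragments and other substrates, had 6 of 16 genes called higher and none lower (5 without each of mock replicates 1 and 3 and rapamycin replicates 2 and 3, 4 without mock replicate 4, 7 without rapamycin replicate 1). AT4G20830 stood at 58.9, 64.7 and 66.1 TPM with rapamycin and at 40.3, 38.9 and 36.1 TPM with mock (0.70, SE 0.06, limma adjusted p = 4.7e-05). AT1G30700 stood at 40.3, 40.1 and 44.2 TPM with rapamycin and at 23.7, 23.05 and 20.05 TPM with mock (0.87, SE 0.07, limma adjusted p = 4.73e-05). AT4G20860 stood at 125, 133 and 144 TPM with rapamycin and at 94.7, 86.4 and 75.4 TPM with mock (0.64, limma adjusted p = 0.000536). The wild-type means lay above every mock value and below every rapamycin value of the line in all 3 genes, for example at 57.01 ± 1.37 TPM with rapamycin and 55.9 ± 2.701 TPM with mock for AT4G20830.

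**Figure D3:**
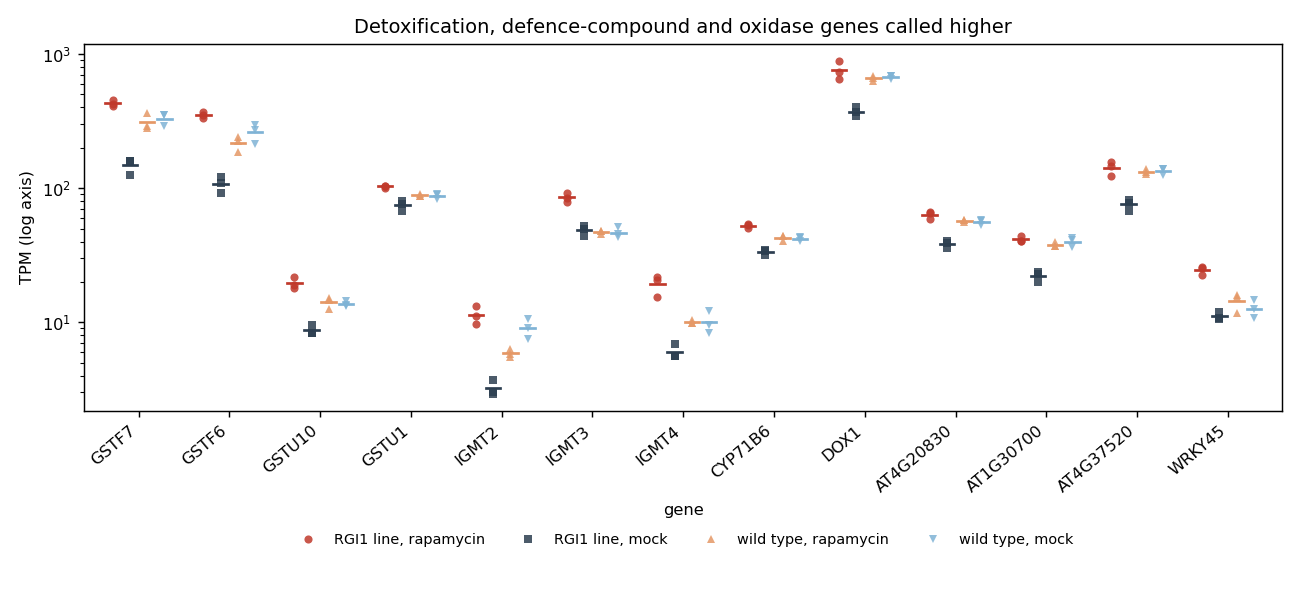
TPM on a log axis for 13 genes called higher in the RGI1 line, in line roots with rapamycin (circles), line roots with mock (squares), wild type with rapamycin (upward triangles) and wild type with mock (downward triangles); points are libraries and bars are means of 3. In each gene all 3 rapamycin values of the line lie above all 3 mock values. The wild-type groups lie mostly near each other, though not for IGMT2, and mostly between the line groups.

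Immune regulators also held genes called higher. In the list of pattern-triggered immunity, the layer of defence set off by receptors for microbial molecules that also use BAK1, 6 of 33 genes were called higher and none lower (3 without mock replicate 3), and 27 did not pass. WRKY transcription factors, many of which act in defence, had 7 of 47 called higher and none lower (4 without mock replicate 1 and 4 without rapamycin replicate 2). WRKY45 (AT3G01970) stood at 25.7, 25.6 and 22.6 TPM with rapamycin and at 10.55, 10.8 and 12 TPM with mock (1.08, SE 0.12, limma adjusted p = 0.00034), against 14.3 ± 2.31 and 12.6 ± 1.91 TPM in wild type with rapamycin and with mock. WRKY25 (AT2G30250) stood at 26.6, 26.1 and 25.5 TPM with rapamycin and at 21.2, 20.6 and 20 TPM with mock (0.32, limma adjusted p = 0.00256). WRKY15 (AT2G23320) (0.49, limma adjusted p = 0.00311) and WRKY6 (AT1G62300) (0.36, limma adjusted p = 0.00551) were also higher, and all 4 kept their calls without each library and in the other fits. ERF5 (AT5G47230), an ethylene response factor of defence, stood at 33.4, 33.5 and 31.3 TPM with rapamycin and at 23.8, 22.3 and 23.1 TPM with mock (0.49, SE 0.05, limma adjusted p = 0.000253).

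Small defence proteins were among the 12 highest fold changes. TI1 (AT2G43510), a trypsin inhibitor, stood at 38.4, 31.3 and 38.96 TPM with rapamycin and at 14.4, 13.4 and 10.4 TPM with mock (1.44, SE 0.22, limma adjusted p = 0.00301). AT3G16530, a legume lectin family gene, stood at 20.4, 19.5 and 18.9 TPM with rapamycin and at 4.55, 8.78 and 4.51 TPM with mock (1.62, SE 0.19, limma adjusted p = 0.000558). The 12 highest were taken only from called genes without overlap between the line groups, so its absence in both genes follows from that choice. PDF2.1 (AT2G02120), a defensin-like gene, stood at 41.95, 52.3 and 36.7 TPM with rapamycin and at 19.3, 20.5 and 13.4 TPM with mock (1.26, limma adjusted p = 0.00573). Wild type, where PDF2.1 was not called, had 61.9, 53.02 and 35.98 TPM with rapamycin and 33.5, 21.3 and 26.8 TPM with mock (0.85), and the difference between line and wild type was 0.41 (limma adjusted p = 0.666). AT1G10585, a bHLH transcription factor gene, stood at 3.34, 2.09 and 6.58 TPM with rapamycin and at 0.723, 1.18 and 0.653 TPM with mock (1.34, limma adjusted p = 0.0116), with a limma adjusted p of 0.0556 without mock replicate 4. NAI1 (AT2G22770), a bHLH factor that controls ER bodies, which store a defence glucosidase, stood at 181, 202 and 197 TPM with rapamycin and at 151, 138 and 134 TPM with mock (0.45, limma adjusted p = 0.00157), and the other called gene of the 15 in its list was NSP3, which was lower.

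Class III peroxidases, secreted enzymes that use or make reactive oxygen species in the cell wall, split into both directions, with 11 of 52 called higher, 6 lower and 35 not called. The shares over all genes were 2.56% higher and 1.49% lower. The list was read from product names and leaves out family members with other names. Without mock replicate 4, 6 were higher, and in the fit of all 30 libraries 5 were higher and 4 lower. AT4G37520 stood at 145, 156 and 122.9 TPM with rapamycin and at 77.5, 81.9 and 67.9 TPM with mock (0.89, SE 0.09, limma adjusted p = 0.000139), against 133 ± 5.17 and 134 ± 7.57 TPM in wild type with rapamycin and with mock. AT1G34510 went the other way, with 38.2, 35.01 and 43.6 TPM with rapamycin and 79.5, 80.3 and 82.7 TPM with mock (-1.04, SE 0.10, limma adjusted p = 0.000111), against 52.2 ± 3.46 and 50.4 ± 7.94 TPM in wild type. AT1G05240 (-0.67, limma adjusted p = 6.15e-05) and AT4G26010 (-0.65, limma adjusted p = 0.000337) were lower too. The difference from the wild-type response was called higher for 7 and lower for 4 of the 52 genes, with 2 lower without each of line mock replicate 3 and wild-type mock replicate 1. DOX1 (AT3G01420), a fatty acid dioxygenase of the defence response chosen here after its values were seen, stood above these 4 peroxidase genes in every library of the line, with 739.6, 892 and 656 TPM with rapamycin and 402, 371 and 344 TPM with mock (1.02, SE 0.09, limma adjusted p = 8.01e-05), against 661 ± 30.2 and 674 ± 21.2 TPM in wild type.

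Root hair genes formed the group with most calls lower. Root hairs are outgrowths of epidermal cells whose tips extend by loosening and rebuilding of the wall, under a cascade of RSL transcription factors. Of 30 genes tested 19 were called lower and 1 higher, the transcription factor gene RSL2, with a list median of -0.38, against 0.03 over all genes and -0.10 for the list in wild type. In the line 25 of the 30 stood below 0, and in wild type, with 0 called, 28 of the 30 did. The count lower was 12 without mock replicate 3 and between 13 and 16 without each other library. The call of RSL2 was lost without each of rapamycin replicates 1 and 2 and mock replicates 1 and 3. It was also lost after median-ratio scaling, with no filter on low values, with no intensity trend, with all 30 libraries and with the 6 line libraries alone. In bulk roots, fewer cells of a type and less RNA per cell cannot be told apart. The summed level of the 31 listed genes ranged from 896 to 929 TPM in line roots with rapamycin and from 1267 to 1285 TPM with mock, against 1045 to 1218 TPM in wild type with rapamycin and 1115 to 1221 TPM in wild type with mock. The line groups did not overlap each other, and the wild-type groups lay between them.

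The lowest fold changes of the list were those of XTH26 (AT4G28850) and XTH13 (AT5G57540), wall enzymes that cut and rejoin xyloglucan, and of the proline-rich wall protein gene PRP3 (AT3G62680). XTH13 had 24.8, 20.9 and 24.8 TPM with rapamycin and 50.1, 56.1 and 52.9 TPM with mock (-1.14, SE 0.08, limma adjusted p = 4.08e-05), with wild type in between at 37.7 ± 1.801 and 40.8 ± 3.67 TPM with rapamycin and with mock. XTH26 had 18.8, 14.8 and 23.1 TPM with rapamycin and 51.9, 58.1 and 58.4 TPM with mock (-1.54, SE 0.14, limma adjusted p = 8.01e-05), and wild type had 27.9 ± 3.41 and 25.8 ± 3.68 TPM. For XTH26 the mock line stood apart, above all other libraries of the set. RHS19 (AT5G67400), a root hair peroxidase gene, had 111, 102 and 112 TPM with rapamycin and 172, 163 and 167 TPM with mock (-0.63, SE 0.06, limma adjusted p = 0.000225), and RHS15 (AT4G25220) had 4.98, 4.78 and 4.81 TPM and 7.93, 9.21 and 9.32 TPM with and without rapamycin (-0.74, SE 0.08, limma adjusted p = 0.000261). For both genes all 3 rapamycin values of the line stood below every wild-type library of the set. PRP3 had 8.59, 9.62 and 6.64 TPM with rapamycin and 16.3, 19.8 and 23.4 TPM with mock (-1.17, limma adjusted p = 0.000536).

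The difference from the wild-type response was called lower for 8 of the 30 root hair genes, where 0.428% of all genes were, and higher for 1. The 8 became between 3 and 7 without each of the 12 libraries of the set in turn, and the 1 became 0 without each of them other than wild-type rapamycin replicate 4. The 3 was reached without line rapamycin replicate 2, line mock replicates 3 and 4, and wild-type mock replicate 1. Epidermal fate regulators, which set where hair cells form, had 0 of 10 genes called (limma, list median -0.06, 1 with an unadjusted p under 0.05), and their summed levels overlapped, with 76.0 to 80.7 TPM in line roots with rapamycin and 80.7 to 84.1 TPM with mock.

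Other wall genes were called lower too, and a few higher. Xyloglucan endotransglucosylases had 5 of 23 genes lower and 3 higher, and 3 of the 5 lower are also on the root hair list. The count higher was 0 without mock replicate 3 and 0 without mock replicate 4, and 1 without each other library. XTH12 (AT5G57530) had 23.04, 20.05 and 26.5 TPM with rapamycin and 47.5, 45.7 and 42.98 TPM with mock (-0.95, SE 0.10, limma adjusted p = 0.000227), and XTH14 (AT4G25820) had 106, 105 and 108 TPM and 147, 152 and 149 TPM with and without rapamycin (-0.49, limma adjusted p = 0.00119). Extensins, rod-like glycoproteins that are cross-linked into the wall, had 7 of 10 genes lower and none higher (median -0.84), but the list also stood lower in wild type without a call (median -0.42, 10 of 10 below 0), and limma called the difference for 0 of the 10 (2 with an unadjusted p under 0.05). The extensin count was 1 without mock replicate 4 and 1 without rapamycin replicate 3, and 3 without mock replicate 3 or rapamycin replicate 2. EXT6 (AT2G24980) kept its call in each of these fits, with 1.501, 1.04 and 1.01 TPM with rapamycin and 3.56, 3.07 and 4.58 TPM with mock (-1.11, limma adjusted p = 0.00554). With the filter at a mean of at least 5 TPM only 3 extensins were tested, of which 1 was called lower (median -0.32). The summed level of the extensin list ranged from 101 to 143 TPM in line roots with rapamycin and from 141 to 207 TPM with mock, so the groups overlapped. Extensin genes hold repeats that are near-identical between copies, so their reads may have been split. The wider family of proline-rich extensin-like genes, which shares members with the extensin list, had 6 of 12 lower and none higher (median -1.02, and -0.63 in wild type). That count was 3 without each of mock replicates 1 and 3 and 2 without each of mock replicate 4 and rapamycin replicates 2 and 3, and 9 with all 30 libraries, and limma called the difference from wild type for 0 of the 12 (3 with an unadjusted p under 0.05).

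Among fasciclin-like and arabinogalactan proteins, 3 of 36 were lower and 1 higher, and the call higher was lost without each library other than rapamycin replicate 2 and after quantile or median-ratio scaling. Over all genes 1.49% were called lower and 2.56% higher, and the 1 call higher is near that share. The list median was -0.10 in the line, with 25 of 36 below 0, and -0.17 in wild type, with 32 of 36 below 0 and 0 called. FLA6 (AT2G20520) had 2.101, 1.33 and 2.85 TPM with rapamycin and 5.93, 7.16 and 8.13 TPM with mock (-1.41, SE 0.18, limma adjusted p = 0.000808), and AGP3 (AT4G40090) had 17.2, 15.2 and 15.2 TPM and 25.9, 25.6 and 27.97 TPM with and without rapamycin (-0.71, limma adjusted p = 0.00143). Of 17 expansins, which loosen walls without cutting them, 2 were lower and none higher while the list median was 0.08. Those are EXPA18 and EXPA7, the pair of root hair expansins, both also on the root hair list, and EXPA7 (AT1G12560) (-0.24, limma adjusted p = 0.0374) had a limma adjusted p between 0.0609 and 0.13 when any of rapamycin replicates 1, 2 and 3 and mock replicates 1, 3 and 4 was left out.

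**Figure D4:**
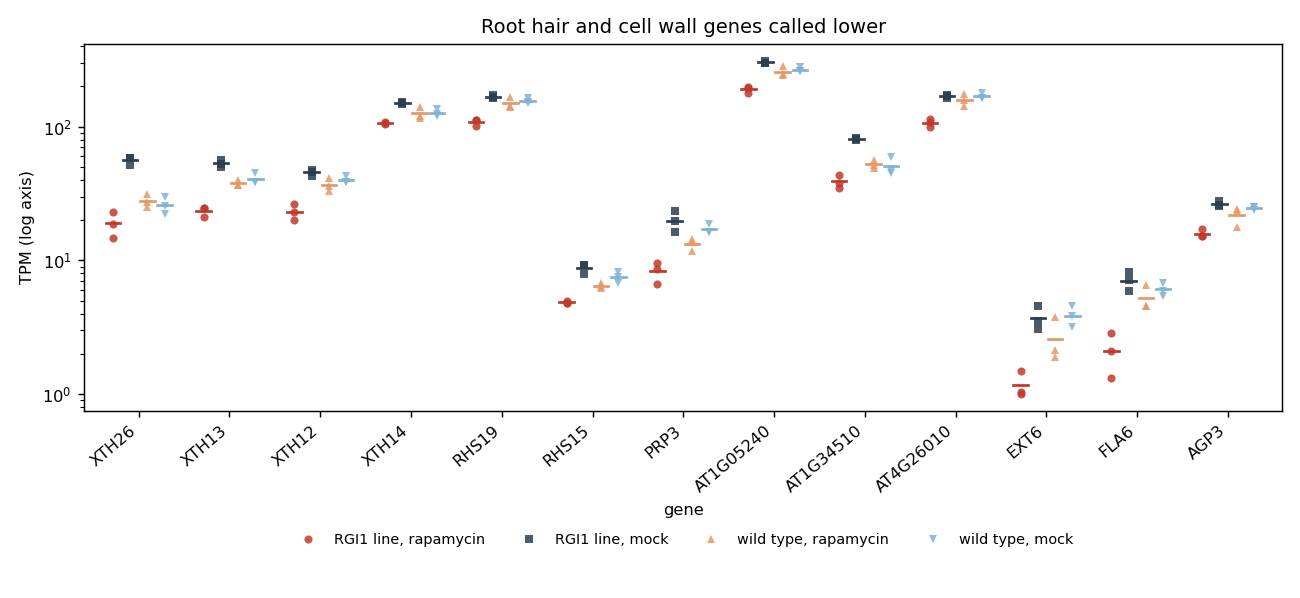
TPM on a log axis for 13 root hair and wall genes called lower in the RGI1 line, with the 4 groups drawn as line with rapamycin (circles), line with mock (squares), wild type with rapamycin (upward triangles) and wild type with mock (downward triangles); points are libraries and bars are means of 3. All rapamycin values of the line lie below its mock values, and wild type lies mostly between them.

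Genes for protein folding in the ER were among those called lower. Chaperones and disulfide isomerases of this compartment fold secreted and membrane proteins, among them receptor kinases. Of 15 genes tested 9 were called lower and none higher (median -0.26), and 14 of 15 stood below 0, whereas 12 of 15 stood above 0 in wild type (median 0.07). The count lower was 4 without mock replicate 1, 5 without each of mock replicates 3 and 4 and rapamycin replicate 1, and 12 without rapamycin replicate 3. The Hsp70 chaperone gene BIP2 (AT5G42020) had 256, 253 and 285 TPM with rapamycin and 352, 351 and 390.0 TPM with mock (-0.46, SE 0.06, limma adjusted p = 0.00122), and BIP1 (AT5G28540) had 216, 218 and 254 TPM and 284, 286 and 317 TPM with and without rapamycin (-0.37, SE 0.06, limma adjusted p = 0.00637). BIP1 and BIP2 are close copies, and the division of their reads is uncertain. CNX1 (AT5G61790), the lectin chaperone calnexin, had 72.3, 78.4 and 87.6 TPM with rapamycin and 102, 105 and 113 TPM with mock (-0.42, SE 0.07, limma adjusted p = 0.00493). ERDJ3B (AT3G62600), a co-chaperone of BIP, had 39.4, 37.7 and 39.3 TPM with rapamycin and 45.96, 47.7 and 54.1 TPM with mock (-0.33, limma adjusted p = 0.00854). For these genes both wild-type groups lay near the mock line or above it: CNX1 averaged 125 ± 2.69 TPM in wild type with rapamycin and 118 ± 8.04 TPM in wild type with mock, and BIP2 369.6 ± 20.98 and 352 ± 10.6 TPM. AT4G16660, a further Hsp70 gene named through the comparison with the RGI5 line, had 63.8, 65.2 and 71.96 TPM with rapamycin and 84.4, 84.8 and 87.9 TPM with mock (-0.35, SE 0.05, limma adjusted p = 0.00157). Cytosolic heat shock genes had 0 of 6 called in the line (limma, median -0.15, 4 with an unadjusted p under 0.05), and 1 was called lower after median-ratio scaling. Of these, 5 of 6 stood below 0 in the line and 6 of 6 above 0 in wild type (median 0.09). The difference from the wild-type response was called lower for 1 of the 6. That call was lost without each library of the set other than wild-type rapamycin replicate 2 and line rapamycin replicate 3.

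Among genes that respond to low oxygen, 4 of 14 were called lower and none higher (median -0.41), with 13 of 14 below 0 in the line and 13 of 14 above 0 in wild type (median 0.13). The count was 2 without each of mock replicates 3 and 4 and rapamycin replicates 1 and 2. HRE1 (AT1G72360), an ethylene response factor of hypoxia, had 17.39, 19.1 and 18.6 TPM with rapamycin and 32.3, 36.4 and 41.8 TPM with mock (-0.96, SE 0.09, limma adjusted p = 7.9e-05), against 43.7 ± 3.37 and 41.2 ± 2.63 TPM in wild type with rapamycin and with mock. ACO1 (AT2G19590), an ACC oxidase that makes ethylene, had 38.2, 33.6 and 40.1 TPM with rapamycin and 48.2, 51.9 and 52.1 TPM with mock (-0.44, SE 0.08, limma adjusted p = 0.00698), and it was not called in the fit of all 30 libraries (limma adjusted p = 0.0672). In the ethylene list 2 of 20 genes were higher and 2 lower. ACO4 (AT1G05010), another ACC oxidase gene, was higher, with 43.5, 47.8 and 40.8 TPM with rapamycin and 27.9, 35.4 and 31.6 TPM with mock (0.47, limma adjusted p = 0.0153) and a limma adjusted p between 0.0566 and 0.0614 when any of rapamycin replicate 2 and mock replicates 1 and 4 was left out. ACS9 (AT3G49700), an ACC synthase gene, was lower, with 0.311, 0.718 and 0.506 TPM with rapamycin and 1.61, 2.105 and 2.66 TPM with mock (-1.04, limma adjusted p = 0.0284) and a limma adjusted p between 0.0718 and 0.127 when any of rapamycin replicates 1 and 3 and mock replicates 3 and 4 was left out. ACC oxidase genes were thus called in both directions. Without mock replicate 4, 1 gene of the list was called in each direction.

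**Figure D5:**
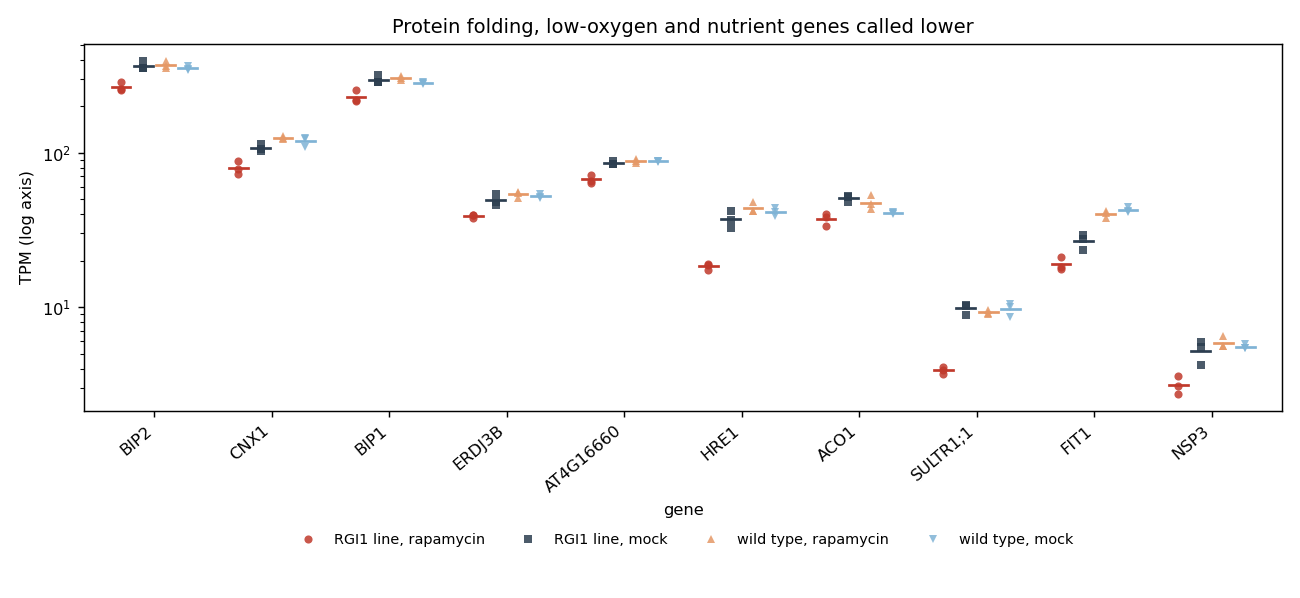
TPM on a log axis for 10 genes of protein folding, low oxygen and nutrients called lower in the RGI1 line, with line roots with rapamycin (circles), line roots with mock (squares), wild type with rapamycin (upward triangles) and wild type with mock (downward triangles); points are libraries and bars are means of 3. The line with rapamycin has the lowest mean of the 4 groups in each gene, and for SULTR1;1 the other 3 groups overlap.

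Of the nutrient lists, few genes were called in each, where 2.56% of all genes were called higher and 1.49% lower. SULTR1;1 (AT4G08620), a high-affinity root sulfate transporter, had 4.07, 3.699 and 3.94 TPM with rapamycin and 8.87, 10.3 and 10.2 TPM with mock (-1.14, SE 0.08, limma adjusted p = 4.08e-05), against 9.22 ± 0.243 and 9.68 ± 0.985 TPM in wild type with rapamycin and with mock. It was the 1 gene called of 16 in the sulfur deficiency list. FIT1 (AT2G28160), the bHLH regulator of iron uptake, had 21.2, 17.64 and 18.1 TPM with rapamycin and 29.3, 27.7 and 23.4 TPM with mock (-0.48, limma adjusted p = 0.00806), and both line groups lay below wild type, at 39.98 ± 2.24 and 42.4 ± 1.86 TPM. AMT1;1 (AT4G13510), an ammonium transporter, had 35.9, 36.6 and 39.4 TPM with rapamycin and 29.01, 29.3 and 24.4 TPM with mock (0.43, limma adjusted p = 0.00267), again with both line groups below wild type (49.9 ± 0.494 and 56.2 ± 1.05 TPM), and its call was lost in the fit of all 30 libraries (limma adjusted p = 0.0795). FIT1 was the 1 gene called lower of 19 in the list of iron uptake and coumarins, and the transporter gene PDR9, described below, the 1 called higher. Of 19 nitrogen genes 3 were higher and none lower, and 1 after median-ratio scaling. That count was 1 without each of mock replicates 3 and 4 and rapamycin replicates 1 and 3.

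ABCG transporters, which export lipids and defence compounds, had 6 of 25 genes higher and none lower (5 and 1 after median-ratio scaling), with between 2 and 3 calls higher without each library other than rapamycin replicate 1, without which there were 7. For this list and the 2 that follow, the shares over all genes were 2.56% higher and 1.49% lower. PDR9 (AT3G53480) had 61.3, 66.5 and 64.6 TPM with rapamycin and 54.1, 53.9 and 51.5 TPM with mock (0.26, limma adjusted p = 0.00446), and ABCG34 (AT2G36380) had 189.9, 209.7 and 212 TPM and 172, 158 and 160.1 TPM with and without rapamycin (0.32, limma adjusted p = 0.00826). Both kept their calls without each library. Casparian strip and suberin genes, which seal the endodermis, had 6 of 28 higher and none lower, and 2 after median-ratio scaling. None was called without rapamycin replicate 3, 1 without mock replicate 4, 2 without each of mock replicates 1 and 3, 3 without rapamycin replicate 2 and 4 without rapamycin replicate 1. Their summed level was 875 to 914 TPM in line roots with rapamycin and 778 to 838 TPM with mock, against 844 to 947 TPM and 921 to 996 TPM in wild type with and without rapamycin. The list median was 0.12 in the line and -0.09 in wild type, where 26 of 28 stood below 0 and 0 were called. Limma called the difference from wild type higher for 1 of the 28. That call was lost without each library of the set other than line mock replicate 1 and line rapamycin replicate 1. Of 16 aquaporins 3 were lower (NIP2;1 (AT2G34390), TIP2;3 (AT5G47450) and PIP2;4 (AT5G60660)), and 0 without each of mock replicates 1 and 4 and rapamycin replicate 1, and 1 without each of mock replicate 3 and rapamycin replicate 3.

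Of 20 clock genes, 4 were higher and 1 lower in the line, and limma called the difference between line and wild type for 0 (1 with an unadjusted p under 0.05). FKF1 (AT1G68050), a blue light receptor of flowering time, had 9.29, 10.8 and 9.896 TPM with rapamycin and 5.24, 5.63 and 5.69 TPM with mock in the line (0.75, SE 0.09, limma adjusted p = 0.000485), and 7.56, 8.81 and 9.88 TPM and 5.02, 5.34 and 5.17 TPM in wild type with and without rapamycin (0.65). The difference of these responses was 0.10 (SE 0.12, limma adjusted p = 0.821). PRR9 (AT2G46790), a repressor of the morning, was lower by a like amount in both, at -0.39 in the line (limma adjusted p = 0.0216) and -0.40 in wild type, where it was not called. In the line PRR9 had a limma adjusted p between 0.0616 and 0.0886 when any of rapamycin replicates 2 and 3 and mock replicates 1 and 3 was left out. Of the 4 calls higher, 1 was left without each of mock replicates 1 and 3 and rapamycin replicate 2, and 2 without rapamycin replicate 3.

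The peptide pathway held 2 called genes. Of 30 genes for RGF peptides, their receptors, co-receptors and downstream kinases, 2 were called higher, where 2.56% of all genes were, and none lower (median 0.05), and 1 after median-ratio scaling. BKK1 (AT2G13790), a close relative of BAK1 and also a co-receptor, had 9.29, 9.67 and 9.47 TPM with rapamycin and 7.47, 7.66 and 7.36 TPM with mock (0.30, SE 0.06, limma adjusted p = 0.0153), with a limma adjusted p between 0.0516 and 0.068 when any of rapamycin replicate 2 and mock replicates 1 and 4 was left out. The peptide gene RGF7 (AT3G02240) had 22.2, 21.3 and 22.6 TPM with rapamycin and 19.9, 12.99 and 13.7 TPM with mock (0.50, SE 0.12, limma adjusted p = 0.0379), with a limma adjusted p between 0.0768 and 0.156 when any of rapamycin replicates 1, 2 and 3 and mock replicates 3 and 4 was left out. Wild type stood higher than both line groups for RGF7, at 36.6 ± 3.34 and 42.99 ± 1.73 TPM with rapamycin and with mock. The kinase genes did not pass: MPK3 (AT3G45640) differed by 0.03 (limma adjusted p = 0.921), MPK6 (AT2G43790) by 0.10 (0.469), MKK4 (AT1G51660) by 0.07 (0.611) and MKK5 (AT3G21220) by -0.04 (0.861). RITF1 (AT2G12646), a transcription factor that acts after RGF perception, had 15.01, 16.1 and 14.98 TPM with rapamycin and 12.98, 11.9 and 15.2 TPM with mock, and the groups overlapped (limma adjusted p = 0.41). RGI5 (AT1G34110), the receptor engineered in the other line, had 1.900, 2.38 and 2.31 TPM with rapamycin and 2.06, 2.12 and 2.51 TPM with mock (limma adjusted p = 0.979). FKBP12 (AT5G64350), a native gene listed with the TOR pathway, had 350.5, 343 and 345 TPM with rapamycin and 353, 338 and 341 TPM with mock (limma adjusted p = 0.952).

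Regulators of lateral roots, the organ named in the title of the series, had 1 of 17 genes called higher and none lower (median 0.02). That gene, LBD33 (AT5G06080), had 2.68, 3.62 and 3.99 TPM with rapamycin and 1.76, 1.87 and 1.49 TPM with mock (0.70, limma adjusted p = 0.0467), with a limma adjusted p between 0.0987 and 0.168 when any of rapamycin replicates 2 and 3 and mock replicates 1, 3 and 4 was left out. GATA23 (AT5G26930), which marks founder cells, had 6.47, 7.99 and 8.32 TPM with rapamycin and 6.0, 4.73 and 4.14 TPM with mock without overlap, but did not pass (0.53, limma adjusted p = 0.0616). LBD29 (AT3G58190), a target of auxin response factors, had 17.7, 15.5 and 20.3 TPM with rapamycin and 21.1, 22.9 and 22.1 TPM with mock, also without overlap and without a call (-0.30, limma adjusted p = 0.0728). The values of 19.9% of all genes did not overlap between these groups. Of 33 auxin genes 1 was lower, IAA2 (AT3G23030) (131, 143 and 141 TPM with rapamycin, 162, 184 and 173 TPM with mock, -0.32, limma adjusted p = 0.0196), with a limma adjusted p between 0.0671 and 0.0907 when any of rapamycin replicate 1 and mock replicates 3 and 4 was left out. Of 17 brassinosteroid genes 1 was higher and 2 lower while the list median was 0.13, and of 22 jasmonate genes 1 was higher. These calls were BEE1 (AT1G18400) and ROT3 (AT4G36380) lower and BRL3 (AT3G13380) and JAZ7 (AT2G34600) higher, and each was lost when any of at least 4 of the 6 libraries was left out. Limma called 4.05% of all genes, 2.56% higher and 1.49% lower, and the share of the auxin list lay below 4.05%. With 1 or 2 calls per direction, the counts in this paragraph are no result about their lists.

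The growth and cell type lists that follow gave no call in limma, unlike the root hair and suberin lists above. Of S phase genes 0 of 16 were called (median 0.03, 1 with an unadjusted p under 0.05), and of G2 and mitosis genes 0 of 20 (median 0.04, 1 unadjusted). Ribosomal proteins had 0 of 97 called (median -0.03, 3 unadjusted), the TOR pathway with FKBP12 0 of 12 (median 0.02, 0 unadjusted) and the root stem cell niche 0 of 15 (median 0.05, 1 unadjusted). Markers of xylem (0 of 6, median 0.03, 0 unadjusted), phloem (0 of 5, median 0.08, 0 unadjusted) and root cap (0 of 3, median 0.14, 1 unadjusted) had none either. Nuclear genes of photosynthesis, which mark green shoot tissue carried along with roots, had 0 of 32 called (1 unadjusted) and a median of -0.14, with 26 of 32 below 0. The median was 0.01 without rapamycin replicate 3 and -0.27 without rapamycin replicate 2, where 1 gene was called lower. Their summed level was 317 to 498 TPM in line roots with rapamycin and 407 to 458 TPM with mock, so that the rapamycin group spread around the mock group, against 316 to 343 TPM and 314 to 360 TPM in wild type with and without rapamycin. Whether shoot tissue had a part in the calls was not tested.

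The response of the line was then tested against that of wild type, gene by gene, as the difference between the 2 fold changes. Limma called 245 of 19634 genes (1.25%), of which 161 were higher (0.82%) and 84 lower (0.428%) in the line. Of the 796 genes called in the line, 227 were also called in this test, 150 higher and 77 lower. The count was 28 in the fit of all 30 libraries. It was 158 without line rapamycin replicate 2, 116 and 128 without line mock replicates 3 and 4, 156 without wild-type rapamycin replicate 2 and 125 without wild-type mock replicate 1, and lay between 164 and 258 without each other library. The largest differences among genes expressed in all groups were 2.07 for IGMT2 (SE 0.18, limma adjusted p = 0.000825), 1.96 for GSTF6 (SE 0.18, limma adjusted p = 0.000825) and 1.62 for GSTF7 (SE 0.16, limma adjusted p = 0.000825). At the other end stood -1.65 for XTH26 (SE 0.20, limma adjusted p = 0.002), -1.61 for the dioxygenase gene AT2G36690 (SE 0.16, limma adjusted p = 0.000825) and -1.45 for AT1G19960 (SE 0.28, limma adjusted p = 0.0276). AT2G36690 had 3.71, 4.61 and 3.13 TPM with rapamycin and 11.9, 11.8 and 9.87 TPM with mock in the line, and 16.5, 16.7 and 18.9 TPM and 14.7, 12.9 and 15.4 TPM in wild type with and without rapamycin. AT1G19960 was called in the difference without being called in the line (-0.73, limma adjusted p = 0.0612). In wild type, where it was not called either, it had 2.73, 2.26 and 3.51 TPM with rapamycin and 1.48, 1.82 and 0.778 TPM with mock. The peroxidase gene AT5G19890 was alike, at -1.17 in the difference (limma adjusted p = 0.0425), with -0.62 in the line and 0.56 in wild type. These were 2 of 18 genes called in the difference and not in the line. Their calls held in 6 and 2 of the 12 fits that left out 1 library.

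AT1G76728 was listed at 0 outside the rapamycin group in nearly every library. The gene, whose product the annotation does not characterize, stood at 6.46, 6.78 and 6.44 TPM in line roots with rapamycin and was listed at 0 in all line roots with mock, and in wild type of the set but for 3.36 TPM in mock replicate 3. AT3G61571 stood at 1.66, 3.46 and 1.63 TPM in line roots with rapamycin and was listed at 0 in line roots with mock, with a limma adjusted p between 0.0542 and 0.0633 when any of rapamycin replicate 2 and mock replicates 3 and 4 was left out. In wild type of the set it was listed at 0 in all roots with rapamycin and stood at 0, 1.87 and 1.805 TPM with mock, and in the RGI5 line it stood at 3.04, 0 and 0 TPM with rapamycin and at 0, 3.41 and 0 TPM with mock. An exact 0 in such a table can be an estimate that failed, so no fold is given for these. In the RGI1 set both genes met the filter of at least 1 TPM in at least 3 libraries only through the line rapamycin group, where they are high. Their calls are therefore given as a description only.

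The RGI5 line received 100 nM rapamycin, a lower dose than the RGI1 line received, so line and dose cannot be told apart in the comparison of their responses. Limma called 4 of 20113 genes (0.0199%), 1 higher (0.00497%) and 3 lower (0.0149%) in the RGI1 line, with 1806 genes (8.98%) at an unadjusted p under 0.05. The gene higher was AT1G76728, listed at 0 in every RGI5 line library, with the limit of the filter given above. SULTR1;1 differed by -0.89 (SE 0.13, limma adjusted p = 0.00493), and it averaged 9.29 ± 0.69 TPM in the RGI5 line with rapamycin and 11.2 ± 0.923 TPM with mock. AT4G16660 differed by -0.50 (SE 0.08, limma adjusted p = 0.015), with 82.2 ± 6.76 TPM in the RGI5 line with rapamycin and 73.8 ± 2.101 TPM with mock. NSP3 (AT3G16390), a nitrile specifier protein of glucosinolate breakdown, differed by -1.16 (SE 0.20, limma adjusted p = 0.0237). NSP3 had 3.07, 2.74 and 3.56 TPM with rapamycin and 5.96, 5.52 and 4.21 TPM with mock in the RGI1 line, and 5.85 ± 0.929 TPM with rapamycin and 3.603 ± 0.546 TPM with mock in the RGI5 line. NSP3 was not called without RGI1 line rapamycin replicates 1 and 2, RGI1 line mock replicates 1 and 3 or RGI5 line mock replicate 2 (limma adjusted p up to 0.0851), and AT4G16660 not without RGI1 line rapamycin replicates 1 and 2 or mock replicate 4 (limma adjusted p up to 0.0646). The count was 2 without RGI1 line rapamycin replicate 1, then 7, 9 and 20 without RGI5 line rapamycin replicates 1, 2 and 3, and 12 and 17 without RGI5 line mock replicates 1 and 4, and it was 19 after quantile normalization. GSTF6 did not pass (1.68, SE 0.33, limma adjusted p = 0.0548), and the RGI5 line averaged 271 ± 115 TPM with rapamycin and 266 ± 114 TPM with mock, a wide spread.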

How the data were processed

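Root mRNA was sequenced from 30 libraries in 10 groups of 3. The authors deposited TPM for 40812 transcript models, each library summing to 1000000. Per the submitters' processing notes Salmon and DESeq2 were used, with no versions. Which genome build and annotation they used is not given in the sources used here. Per the labels' protocols, libraries were made with a stranded mRNA kit. TPM are relative to the library total, so a change in 1 abundant transcript shifts all others. AT1G15405 took between 3.95 and 11.9% of a library, and in the RGI1 line 11.9, 8.51 and 9.15% with rapamycin and 11.2, 10.8 and 10.6% with mock.

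Models were summed to 32753 genes, of which 32048 matched the RefSeq annotation table for names. Genes with at least 1 TPM in at least 3 libraries were tested on log2(TPM + 1), with a pseudocount of 1, in limma 3.58.1 (R 4.3.3, intensity trend), with Benjamini-Hochberg adjustment and a threshold of 0.05. The 12 libraries of the RGI1 set were fitted together, and all 30 for the comparison with the RGI5 line. Identical libraries were not found (0 pairs). No count model was used because TPM keep no depth.

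The gene lists, the genes compared and the tests were chosen with earlier results of these data known. Named genes were the 12 highest and 12 lowest fold changes among called genes averaging 1 TPM or more, without overlap between groups, up to 4 called genes of each list by adjusted p, a set of regulators followed in any case, and the largest differences between responses, with some left out for space. DOX1 lies outside this rule. Alternatives were other filters, pseudocounts, scalings, fits, a replicate block and leaving out each library. Promoter, motif and protein sequences were not used here.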

Additional observations from a re-analysis of the deposited data

Results flagged for a closer look

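Responses of the RGI1 line that differed from those of another group by a test of the difference itself are given here as log2 values with their direction in the RGI1 line. Limma called the difference from the wild-type response for 245 genes, and the difference from the RGI5 line response, at another dose, for 4 genes.

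Among enzymes of detoxification and indole metabolism, the line response exceeded that of wild type by 1.96 for GSTF6, 1.62 for GSTF7, 1.04 for GSTU10 and 0.45 for GSTU1. It exceeded it by 2.07 for IGMT2, 1.499 for IGMT4, 0.77 for IGMT3, 1.55 for CYP71A12 and 0.61 for CYP71B6. For the glycosyltransferases the difference was 0.80 for UGT87A2, 0.71 for UGT73B4 and 0.53 for UGT76C2. For the oxidases it was 0.94 for AT1G30700, 0.70 for AT4G20860, 0.67 for AT4G20830 and 1.05 for DOX1. Further genes with a higher response were AT3G16530 (1.56), WRKY45 (0.91), ERF5 (0.42), WRKY6 (0.41), the peroxidase gene AT4G37520 (0.90), AMT1;1 (0.59) and PDR9 (0.32).

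Among root hair and wall genes, the line response was lower than that of wild type, with a difference of -1.65 for XTH26, -1.03 for XTH13, -0.82 for XTH12, -0.47 for XTH14 and -1.22 for FLA6. The root hair genes RHS19 (-0.58) and RHS15 (-0.56) were lower too, as were the peroxidase genes AT1G34510 (-1.10), AT1G05240 (-0.62), AT4G26010 (-0.57) and AT5G19890 (-1.17). For genes of folding and low oxygen the difference was -0.53 for BIP2, -0.50 for CNX1, -0.47 for BIP1, -0.36 for AT4G16660, -1.04 for HRE1 and -0.65 for ACO1. SULTR1;1 (-1.08), AT2G36690 (-1.61) and AT1G19960 (-1.45) completed the named genes with a lower response.

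With each of the 12 libraries of the set left out in turn, some of these calls were lost. The call of the difference held in 11 of the 12 fits for ERF5, 9 for UGT76C2, 8 for WRKY45, 7 for GSTU1, 6 for PDR9, 3 for UGT87A2 and 2 for WRKY6. Among the genes with a lower response it held in 10 fits for AT4G26010, 6 for AT1G19960, 5 for XTH14, 3 for each of FLA6, RHS15, CNX1, BIP1 and AT4G16660, and 2 for AT5G19890. The highest limma adjusted p among these fits was 0.11, for AT5G19890 without line mock replicate 3. The other genes given here against wild type were called in all 12 fits.

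Against the RGI5 line, the difference was -1.16 for NSP3, -0.89 for SULTR1;1 and -0.50 for AT4G16660, with calls held in 7, 12 and 9 of the 12 fits without 1 library. Line and dose cannot be told apart there.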

How the results depend on the processing

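The count of genes called with rapamycin in the RGI1 line (796) fell to 362 when all 30 libraries were fitted together, 220 higher and 142 lower. In a fit of the 6 line libraries alone 318 genes were higher. A minimum change of 1 on the log2 scale left 35 genes, 21 higher and 14 lower. Other filters, pseudocounts, scalings and the fit with no intensity trend gave between 589 and 801 genes. Leaving out single libraries gave 402 to 695 genes, 250.0 to 500.0 higher and 142 to 242 lower. In wild type the count of 0 became 1 in the fit of all 30 libraries, 1 after quantile normalization and 1 after median-ratio scaling, and lay between 0 and 1 without single libraries (1 without rapamycin replicate 1). The difference between the line and wild-type responses (245) was called for 28 genes with all 30 libraries, 150.0 with no filter on low values and 31 at an absolute difference of at least 1, and for 116 to 258 genes without single libraries, with 125 without wild-type mock replicate 1 and 116 and 128 without line mock replicates 3 and 4. The difference between the responses of the 2 lines (4 genes) was called for 19 genes after quantile normalization, 10 with no filter, 12 at a mean of at least 5 TPM, 12 at a pseudocount of 0.1 and 2 at an absolute difference of at least 1, and for 2 to 20 without single libraries. The cause of these shifts was not tested.

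Mock and rapamycin libraries share the replicate numbers 1 and 3, and the correlation of their deviations over all genes tested was -0.03 and 0.03. Such values cannot tell if libraries of the same number were grown or prepared together, and the labels do not say. With the replicate block 431 genes were called in the line, 266 higher and 165 lower, with 55 for the difference from wild type and 1 for the difference between lines.

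Of the 100 named genes called in the line, 63 kept their call without each of the 6 libraries and 62 in all 10 other settings, and 0 changed direction. Calls were lost most often with all 30 libraries (29 genes), with the replicate block (27) and with no filter on low values (20). The depth of the libraries is unknown, so how far counting error limits the weakly expressed genes could not be set.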
